A study of Mus musculus with 6 samples.

Results

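The respiratory chain genes were examined as 1 group drawn from both cellular genomes. The members are the protein-coding genes whose symbols name subunits of complexes I to V of oxidative phosphorylation, chosen by symbol alone and not by any measured value, with the complex I assembly factors named Ndufaf left out. There are 99 such genes among the 55401 genes of the deposited tables, 13 encoded by mitochondrial DNA (mtDNA) and 86 encoded in the nucleus. Bulk mRNA sequencing gave 6 libraries of mouse embryonic stem cells (mESCs) of the line 46C, in 3 groups of 2. All groups were mESCs kept in serum medium with LIF and the inhibitors Chir99021 and PD0325901, and by the study's methods all were made from cells carrying the biotin ligase BirA-V5 by lentivirus. Controls stably expressed the biotin tag alone and were taken to be the cells with the pSin-FLAG-Avitag vector in the study's methods. Rbbp4 OE cells expressed tagged Rbbp4 and Rbbp7 OE cells expressed tagged Rbbp7. The cells were selected with puromycin as infected populations and not described as single clones. The labels do not say whether the 2 libraries of a group came from separate cultures, so the p-values below measure only the spread between these libraries, which may be technical.

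The respiratory chain moves electrons from NADH and succinate to oxygen through complexes I to IV, pumping protons across the inner mitochondrial membrane, and complex V (ATP synthase) uses the proton gradient to make ATP. Complex II is built from nuclear genes alone, whereas each of the other complexes joins nuclear subunits with a few core subunits encoded by mtDNA. The mtDNA genes are transcribed inside the organelle as long precursors that are cut into shorter RNAs. Their RNA levels therefore depend on a machinery other than that of the nuclear subunits. RBBP4 and RBBP7 are histone-binding proteins of the nucleus.

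Values are TPM (a length-scaled share of all transcripts) as deposited. TPM divides an estimated read number by transcript length and scales each library to the same total, so it allows levels of different genes to be compared, keeps no sequencing depth and gives no counting interval. A higher TPM of 1 gene leaves less for the others. Between 95 and 96 of the 99 members had a TPM above 0, depending on the library, and 95 passed the filter for testing, a mean of at least 0.5 TPM. The overexpressed genes followed the labels: Rbbp4 had 146 and 147 TPM in the controls, 270 and 271 TPM with Rbbp4 OE, and 144 and 143 TPM with Rbbp7 OE, and Rbbp7 had 239 and 237 TPM, 208 and 217 TPM, and 725 and 748 TPM in the same order. All 10 markers of embryonic stem cells were measured, with sums of 8150 to 8390 TPM in the controls, 8840 to 9140 TPM with Rbbp4 OE, and 8860 to 9110 TPM with Rbbp7 OE. With limma, 2 of the 10 rose and 2 fell in Rbbp4 OE, and 1 rose and 0 fell in Rbbp7 OE. Marker sums of other cell types were far below those of embryonic stem cells. Over the 6 libraries they were 0.97 to 3.11 TPM for 6 primitive endoderm genes and 0.93 to 2.64 TPM for 6 muscle and heart genes. For 6 neural genes, with Neurog2 listed at 0 throughout, the sums were 104 to 105 TPM in the controls, 120 to 122 TPM with Rbbp4 OE, and 94.9 to 96.5 TPM with Rbbp7 OE. For 7 trophoblast genes they were 36.3 to 39.1 TPM, 47.2 to 48.4 TPM, and 44.3 to 46.1 TPM in the same order, and 1 of them rose in Rbbp4 OE with limma. For 6 fibroblast genes, with Lum listed at 0 throughout, the sums were 4.48 to 5.59 TPM, 9.09 to 11.7 TPM, and 8.75 to 15.7 TPM, and 1 of them rose in Rbbp4 OE with limma. The part of these cell types in the results below was not tested. In bulk samples, fewer cells expressing a gene and less RNA per cell cannot be told apart.

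A feature of the mouse genome affects how the mtDNA genes can be read. A stretch of mtDNA was copied into nuclear chromosome 1, and the annotation lists its pieces as unprocessed pseudogenes on the minus strand. The start of mt-Co2 (GRCm38 mitochondrial chromosome, 7013 to 7696, subunit 2 of cytochrome c oxidase) and of its copy Gm28661 (chromosome 1, 24614885 to 24615565) is shown because no base separates them, and the start of mt-Nd3 (9459 to 9806, a complex I subunit) and of its copy Gm28438 (chromosome 1, 24612775 to 24613119) because a single base does. Capitals mark the base that differs.
mt-Co2: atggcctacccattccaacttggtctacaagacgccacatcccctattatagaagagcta
Gm28661: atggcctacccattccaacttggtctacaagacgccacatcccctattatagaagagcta
mt-Nd3: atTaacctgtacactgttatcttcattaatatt
Gm28438: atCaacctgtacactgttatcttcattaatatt

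Gm28661 was 100% identical to mt-Co2 over 681 bases. Gm28438 matched mt-Nd3 over 345 bases except for T3C, with positions counted from 1 at the start of mt-Nd3. The copies of mt-Atp6 (Gm10925, 678 bases), mt-Co3 (Gm28437, 783 bases) and mt-Nd4l (Gm10222, 294 bases) were also 100% identical to the genes. Reads from these 5 genes cannot be assigned to the mitochondrial or the nuclear locus by their sequence, apart from reads over the 1 differing base of mt-Nd3 or over an end. In the tables, most of the signal stands under the copies. Gm28661 held 12514 to 13508 TPM over the 6 libraries, whereas mt-Co2 held 222 to 611 TPM. The copies' share of the gene plus the copy was 95.6% to 98.3% for mt-Co2, 75.1% to 90.4% for mt-Atp6, 80.2% to 89% for mt-Co3, 64.3% to 80.7% for mt-Nd3 and 57.2% to 75.3% for mt-Nd4l. The values of these 5 genes are therefore uncertain, and each was also tested with its copy added, an alternative chosen after seeing the data. A sixth gene, mt-Co1 (subunit 1 of cytochrome c oxidase), has a partial copy there, Gm29216, which matched its last 492 bases at 98.8% identity. Gm29216 had 1052 and 232 TPM in the controls, 92.5 and 60.5 TPM with Rbbp4 OE, and 30.1 and 67.6 TPM with Rbbp7 OE, so that 1 control stood far above the other libraries. Both mt-Co1 and mt-Co2 also have full-length copies on chromosome 2. Gm13340, of mt-Co1, was 97.6% identical and had 2.73 to 6.85 TPM over the 6 libraries. Gm13341, of mt-Co2, was 95.9% identical and had 0.41 to 2.47 TPM.

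**Figure D1:**
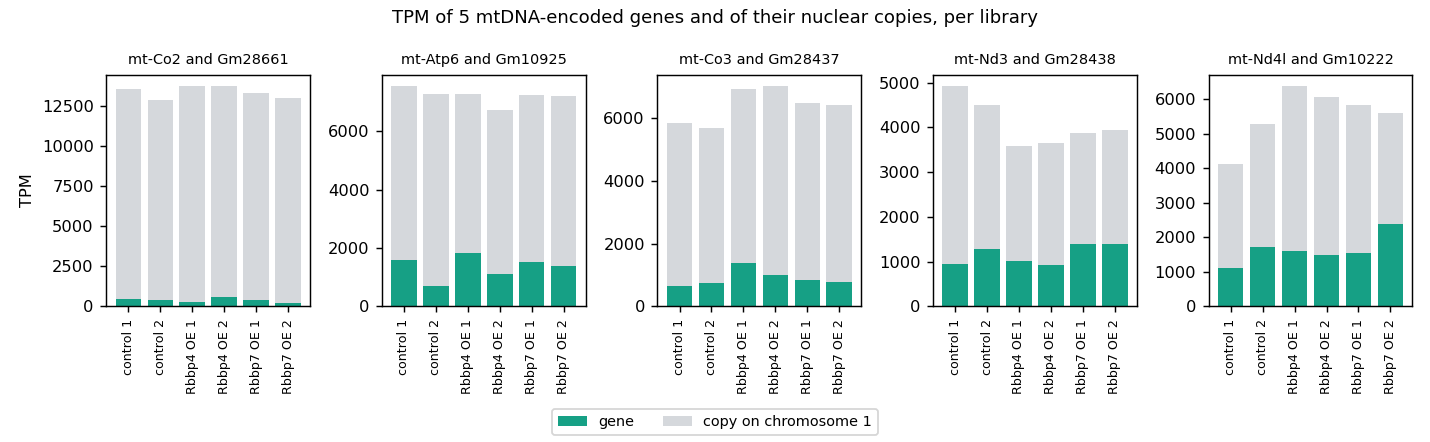
Stacked bars show TPM, on axes that start at 0 and differ between panels, for 5 mtDNA-encoded genes (green) and their nuclear copies on chromosome 1 (grey) in each of the 6 libraries. The copy holds the larger part in every bar, from 57.2% for mt-Nd4l in Rbbp7 OE replicate 2 to 98.3% for mt-Co2 in the same library.

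Of the 13 mtDNA genes, mt-Atp8 had by far the highest value. It encodes a small subunit of ATP synthase, and its gene (7766 to 7969) is 204 bases long, the shortest of the 13. Its last 43 bases are also the first 43 bases of mt-Atp6, and the sequence is shown because so much of it is shared, with the shared part in capitals.
mt-Atp8: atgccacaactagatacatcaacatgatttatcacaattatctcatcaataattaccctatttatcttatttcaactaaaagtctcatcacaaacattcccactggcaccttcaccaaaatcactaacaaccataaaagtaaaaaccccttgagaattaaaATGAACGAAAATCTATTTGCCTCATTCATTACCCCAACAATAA

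The TPM of mt-Atp8 was 55536 and 62710 in the controls, 57945 and 54635 with Rbbp4 OE, and 69222 and 67552 with Rbbp7 OE. It made up 5.46% to 6.92% of all TPM in a library, more than the other 12 mtDNA genes together, which made up 3.36% to 4.58%. The Rbbp4 OE values lay around those of control and both Rbbp7 OE values lay above them. The log2 fold change on the log2(TPM + 1) scale, below called the log2 change, was -0.07 in Rbbp4 OE (SE 0.062, limma adjusted p = 0.503) and 0.21 in Rbbp7 OE (SE 0.062, limma adjusted p = 0.204), so neither passed. TPM divides by length, so the level of so short a gene is uncertain. The overlapping gene mt-Atp6, with its copy Gm10925 added, had 6731 to 7575 TPM over the 6 libraries. The copy search covered annotated transcripts and found no copy of mt-Atp8. The stretch of chromosome 1 between the copies of mt-Co2 and mt-Atp6, the genes on either side of it, was not itself searched. How far the mt-Atp8 value reflects its RNA was not tested. Because 1 short gene carries 5.46% to 6.92% of all TPM, sums are given below with mt-Atp8 set apart.

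The first question was how much of the transcriptome each genome's respiratory chain genes took up in each group. The 86 nuclear-encoded members summed to 27435 and 25761 TPM in the controls, 26533 and 27140 TPM with Rbbp4 OE, and 26053 and 26019 TPM with Rbbp7 OE. These sums overlapped between each line and control, at 1.01 times control in Rbbp4 OE and 0.979 times in Rbbp7 OE. The mtDNA-encoded members without mt-Atp8 summed to 33632 and 34608 TPM in the controls, 45766 and 43515 TPM with Rbbp4 OE, and 42253 and 41938 TPM with Rbbp7 OE. All 4 libraries of the overexpression lines lay above both controls, at 1.31 times control in Rbbp4 OE and 1.23 times in Rbbp7 OE. The ratio of this mtDNA sum to the nuclear sum was 1.23 and 1.34 in the controls, 1.73 and 1.60 with Rbbp4 OE, and 1.62 and 1.61 with Rbbp7 OE. With mt-Atp8 included, the ratio was 3.25 and 3.78, 3.91 and 3.62, and 4.28 and 4.21 in the same order, and Rbbp4 OE then overlapped control. The full mtDNA sum was 1.08 times control in Rbbp4 OE and 1.18 times in Rbbp7 OE, so that the order of the lines depended on mt-Atp8. Both lines were compared with the same 2 controls. With 2 libraries against 2, an exact two-sided permutation test cannot give a p below 0.333, so the sums carry no test.

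The sum was then split by whether a gene has a full copy on chromosome 1. The 7 mtDNA genes without one, mt-Atp8 left out, summed to 28902 and 29790 TPM in the controls, 39680 and 38375 TPM with Rbbp4 OE, and 36576 and 35778 TPM with Rbbp7 OE, which is 1.33 and 1.23 times control. The 5 genes with a full copy, added to their copies, summed to 36060 and 35673 TPM, 38003 and 37332 TPM, and 36788 and 36196 TPM in the same order, which is 1.05 and 1.02 times control. Without mt-Co1, which has the partial copy, the remaining 6 genes summed to 1.35 and 1.28 times control. In each of these sums the libraries of each line lay above both controls.

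**Figure D2:**
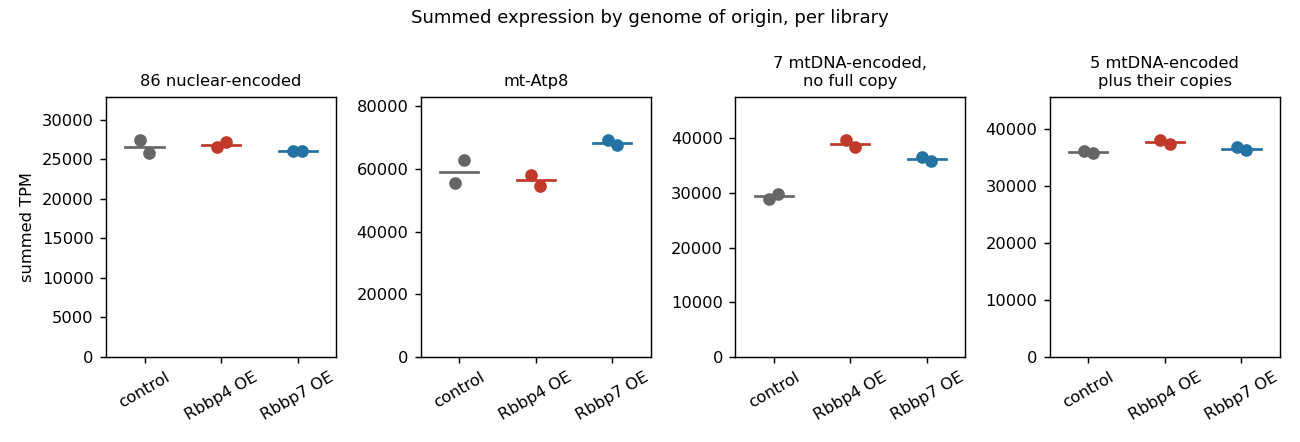
Points show the summed TPM of each of the 2 libraries per group and lines the group means, on axes that start at 0 and differ between panels. Panels show the nuclear-encoded members, mt-Atp8, the 7 mtDNA-encoded genes without a full copy on chromosome 1, and the 5 with one, copies added. The 7 genes sit at 28902 and 29790 TPM in control and at 35778 to 39680 TPM in the overexpression lines, whereas the nuclear sums overlap.

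Individual genes were compared next, between Rbbp4 OE and control. With limma, 17 of the 95 tested members passed an adjusted p under 0.05, 11 higher and 6 lower. Over all 14156 tested genes, 3.29% passed as higher and 8.07% as lower. No member passed the thresholds used by the study, an adjusted p under 0.01 with a fold change over 2, which 0.516% of all tested genes did, while 35 members (36.8%) and 29.6% of all tested genes had an unadjusted limma p under 0.05. The members that passed therefore changed by less than 2-fold, with the exception of Atp5s, whose adjusted p was above 0.01. By genome of origin, 8 of 13 mtDNA genes rose and none fell. Of 82 tested nuclear genes, 3 rose (3.66%) and 6 fell (7.32%), near the 3.29% and 8.07% of all tested genes. The median log2 change was 0.32 over the mtDNA genes, 0.04 over the nuclear genes and -0.08 over all tested genes. Because all genes together were shifted down in TPM, the split depended on the scaling. After median-of-ratios scaling, which moved the median of all genes from -0.08 to 0.01, 14 members were higher and 0 lower: none of the 6 lower genes passed any more, and Atp5f1, Atp5o and Cox7a2 joined the higher ones. The count also depended on the libraries. It was 17 without control replicate 1, 4 without control replicate 2, 1 without Rbbp4 OE replicate 1, 0 without Rbbp4 OE replicate 2, where 22 members had an unadjusted p under 0.05, and 1 without either Rbbp7 OE library.

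The clearest change was in mt-Cytb (ENSMUSG00000064370.1, 14145 to 15288), for which the copy search over annotated transcripts found no match. Shorter or unannotated copies of it were not searched for. This gene encodes cytochrome b, the only complex III subunit made from mtDNA. It had 4284 and 4264 TPM in the controls, 6599 and 6609 TPM with Rbbp4 OE, and 6142 and 6048 TPM with Rbbp7 OE. All 4 libraries of the lines lay above both controls by many times the difference between replicates. With Rbbp4 OE the log2 change was 0.63 (SE 0.029, limma adjusted p = 0.00161). This call held in 17 of 18 alternatives, and the adjusted p was 0.0528 without Rbbp4 OE replicate 2.

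Of the 7 complex I subunits encoded by mtDNA, 5 rose in Rbbp4 OE. These subunits form the membrane arm of complex I, which pumps protons. The largest of these increases was in mt-Nd5 (11742 to 13565), which had 1022 and 1130 TPM in the controls, 1575 and 1503 TPM with Rbbp4 OE, and 1402 and 1360 TPM with Rbbp7 OE, with a log2 change with Rbbp4 OE of 0.52 (SE 0.058, limma adjusted p = 0.00899). Its neighbour mt-Nd6 (13552 to 14070), the 1 respiratory chain gene on the other strand of mtDNA, had 1471 and 1370 TPM, 2098 and 1814 TPM, and 1773 and 1656 TPM, with a log2 change of 0.46 (SE 0.079, limma adjusted p = 0.0231). The libraries of both lines lay above both controls for each of the pair. The genes overlap by 14 bases on opposite strands, and the strand setting of the read counting is not given in the sources used here, so reads within that overlap cannot be told apart.

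The other 3 were mt-Nd1, mt-Nd2 and mt-Nd4. The TPM of mt-Nd1 (2751 to 3707) was 5807 and 5566 in the controls, 7420 and 6813 with Rbbp4 OE, and 6938 and 6764 with Rbbp7 OE, a log2 change with Rbbp4 OE of 0.32 (SE 0.050, limma adjusted p = 0.0178). That of mt-Nd2 (3914 to 4951) was 1852 and 1895, 2315 and 2231, and 2304 and 2212, a log2 change of 0.28 (SE 0.040, limma adjusted p = 0.0155). For both genes the line libraries were all higher than the controls. The TPM of mt-Nd4 (10167 to 11544) was 1849 and 1880, 2384 and 2207, and 2628 and 2320, a log2 change of 0.30 (SE 0.069, limma adjusted p = 0.0457). This was the mtDNA gene with the highest adjusted p among those that passed, and with a pseudocount of 5 it no longer did (limma adjusted p = 0.0523). Its call held in 7 of 18 alternatives.

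Of the remaining complex I genes of mtDNA, mt-Nd3 had 954 and 1275 TPM in the controls, 1007 and 914 TPM with Rbbp4 OE, and 1386 and 1383 TPM with Rbbp7 OE, so that the lower control fell between the Rbbp4 OE values. With Rbbp4 OE its log2 change was -0.20 (SE 0.13, limma adjusted p = 0.356). With Gm28438 added, the values were 4932 and 4509 TPM, 3585 and 3659 TPM, and 3882 and 3937 TPM. On this sum both lines lay below both controls, and with Rbbp4 OE the log2 change was -0.38 (SE 0.048, limma adjusted p = 0.0113), a fall. For mt-Nd4l the values were 1123 and 1728 TPM, 1606 and 1501 TPM, and 1558 and 2397 TPM, overlapping between all groups, with a log2 change of 0.16 (SE 0.25, limma adjusted p = 0.728). With Gm10222 added, it was 0.42 (SE 0.11, limma adjusted p = 0.0621).

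The mtDNA genes of complex IV encode the 3 core subunits of cytochrome c oxidase. The TPM of mt-Co1 (5328 to 6872), which carries the oxygen-reducing centre, was 12617 and 13683 in the controls, 17288 and 17199 with Rbbp4 OE, and 15389 and 15419 with Rbbp7 OE. Both lines lay above the controls and Rbbp4 OE above Rbbp7 OE, with a log2 change with Rbbp4 OE of 0.39 (SE 0.043, limma adjusted p = 0.00884). Quantile normalization brought it to 0.12 (limma adjusted p = 0.335). Added to its partial copy Gm29216, a sum chosen after seeing the data, it had 13669 and 13916 TPM, 17381 and 17259 TPM, and 15419 and 15487 TPM, at 1.26 and 1.12 times control. The TPM of mt-Co3 (8607 to 9390) was 646 and 746, 1376 and 1015, and 854 and 778, a log2 change with Rbbp4 OE of 0.77 (SE 0.15, limma adjusted p = 0.0299). With Gm28437 added it still rose, but by 0.28 (SE 0.031, limma adjusted p = 0.00864), so the larger value rests on how reads were divided between the gene and its copy. The TPM of mt-Co2 was 429 and 365, 282 and 611, and 365 and 222, and the 2 Rbbp4 OE libraries lay on either side of the controls. With Gm28661 added, its log2 change was 0.06 (SE 0.035, limma adjusted p = 0.3).

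Besides mt-Atp8, complex V takes mt-Atp6 (7927 to 8607), part of the proton channel, from mtDNA. It had 1577 and 704 TPM in the controls, 1815 and 1099 TPM with Rbbp4 OE, and 1514 and 1380 TPM with Rbbp7 OE. The controls differed from each other more than the groups did. With Rbbp4 OE the log2 change was 0.42 (SE 0.40, limma adjusted p = 0.524) and became -0.09 with Gm10925 added (SE 0.045, limma adjusted p = 0.25). Over the 13 genes with copies added, 8 rose and mt-Nd3 fell in Rbbp4 OE, and mt-Co2, mt-Atp6, mt-Nd4l and mt-Atp8 did not pass.

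**Figure D3:**
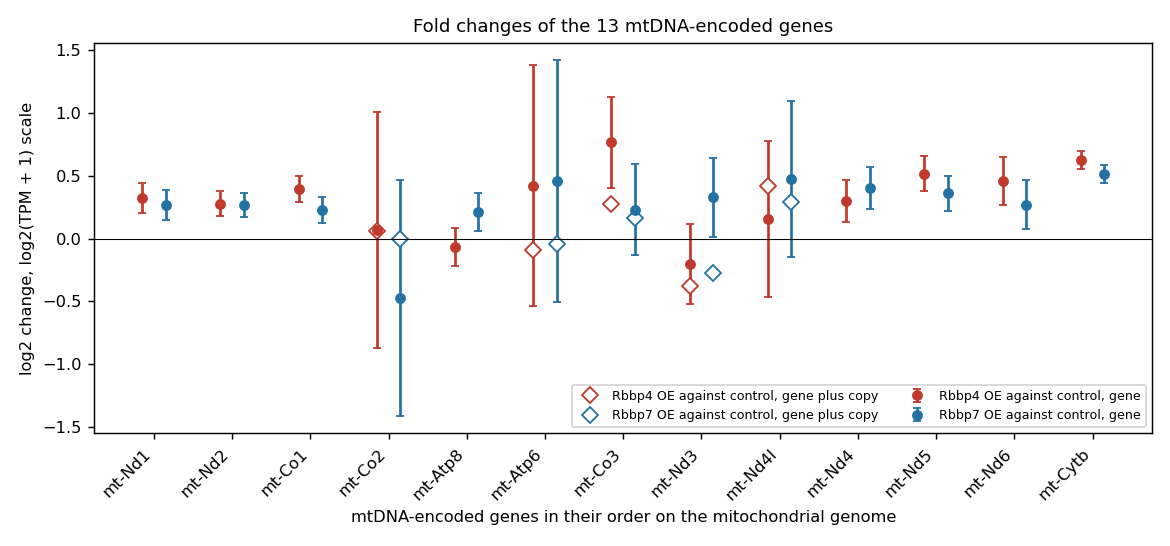
Log2 changes against control, on the log2(TPM + 1) scale, of the 13 mtDNA-encoded genes in genome order; filled circles with 95% confidence intervals from limma show the genes as deposited and open diamonds the genes with their nuclear copies added, in red for Rbbp4 OE and blue for Rbbp7 OE. The mt-Cytb values of 0.63 and 0.51 have narrow intervals, and the diamonds of mt-Nd3 lie below 0 at -0.38 and -0.27.

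The 2 mitochondrial ribosomal RNAs lie on mtDNA beside these genes and are not members. Most of such RNA is not expected in a library made from poly(A) RNA. mt-Rnr2 had 296 and 340 TPM in the controls, 577 and 521 TPM with Rbbp4 OE, and 595 and 505 TPM with Rbbp7 OE. Its log2 change was 0.79 in Rbbp4 OE (SE 0.10, limma adjusted p = 0.0130) and 0.79 in Rbbp7 OE (SE 0.10, limma adjusted p = 0.0515). mt-Rnr1 had 200 and 185 TPM, 217 and 247 TPM, and 268 and 228 TPM, and passed in neither line, with limma adjusted p of 0.145 and 0.2. Whether the amount of mitochondrial RNA entering the libraries differed between groups was not tested.

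The nuclear subunits were then described by complex, although the shares of them that passed were near those over all tested genes. Of 37 nuclear genes placed in complex I by their symbols, 2 rose and 1 fell in Rbbp4 OE, and the median log2 change was 0.03. Ndufa13 (chromosome 8, 69894180 to 69902558), an accessory subunit also known as GRIM-19, had 71.0 and 75.0 TPM in the controls, 99.6 and 92.1 TPM with Rbbp4 OE, and 76.1 and 76.9 TPM with Rbbp7 OE. Only the Rbbp4 OE libraries stood well above control, with a log2 change of 0.39 (SE 0.068, limma adjusted p = 0.0235). Ndufa10 (chromosome 1, 92439010 to 92473860), an accessory subunit of the membrane arm, had 87.2 and 86.3 TPM, 110 and 113 TPM, and 101 and 96.5 TPM, with a log2 change of 0.36 (SE 0.057, limma adjusted p = 0.0197). The nuclear genes so placed that did not pass ranged from -0.49 for Ndufa4l2 to 0.27 for Ndufs8. Ndufa4 and Ndufa4l2 stand in this group by symbol alone.

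Complexes II and III each had 1 nuclear gene that fell and none that rose in Rbbp4 OE. Sdhd (chromosome 9, 50596357 to 50603812), a membrane anchor of succinate dehydrogenase, had 143 and 133 TPM in the controls, 103 and 110 TPM with Rbbp4 OE, and 121 and 130 TPM with Rbbp7 OE. With Rbbp4 OE the log2 change was -0.37 (SE 0.070, limma adjusted p = 0.0298), with both libraries below both controls. The catalytic subunit Sdha had -0.27 (limma adjusted p = 0.0654), the iron-sulfur subunit Sdhb 0.04 (limma adjusted p = 0.836) and the other anchor Sdhc 0.11 (limma adjusted p = 0.257). The 4 genes of complex II summed to 563 and 544 TPM in the controls, 501 and 524 TPM with Rbbp4 OE, and 540 and 563 TPM with Rbbp7 OE, which made complex II the 1 complex whose summed TPM over both genomes was lower in both Rbbp4 OE libraries than in either control. After median-of-ratios scaling these sums overlapped, at 0.997 times control. In complex III, Uqcrfs1 (chromosome 13, 30540308 to 30545362), the Rieske iron-sulfur protein, had 109 and 106 TPM, 88.9 and 92.3 TPM, and 104 and 108 TPM, and fell in Rbbp4 OE by 0.25 on the log2 scale (SE 0.058, limma adjusted p = 0.0477). The other 8 nuclear complex III genes had log2 changes of -0.08 for Uqcrh to 0.19 for Uqcrc2, and the cytochrome c1 gene Cyc1 had -0.02.

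In complex IV, Cox6a1 rose and Cox5a fell among 15 tested nuclear genes. Cox6a1 (chromosome 5, 115345642 to 115348981) had 1629 and 1439 TPM in the controls, 1901 and 1938 TPM with Rbbp4 OE, and 1747 and 1833 TPM with Rbbp7 OE, with a log2 change of 0.33 (SE 0.064, limma adjusted p = 0.0311). Cox5a (chromosome 9, 57521274 to 57532426) had 565 and 503 TPM, 400 and 411 TPM, and 424 and 447 TPM, with a log2 change of -0.39 (SE 0.066, limma adjusted p = 0.0216). For each of them, both lines lay on the same side of control. In complex V, Atp5b and Atp5s fell among 17 tested nuclear genes. Atp5b (chromosome 10, 128083273 to 128090391), the catalytic beta subunit, had 2058 and 2055 TPM, 1833 and 1782 TPM, and 2116 and 2075 TPM, with a log2 change of -0.19 (SE 0.035, limma adjusted p = 0.0276). Atp5s (chromosome 12, 69724950 to 69744660), named Dmac2l in RefSeq, carries the symbol that the rule selects but is not a structural subunit. It had 11.6 and 10.1 TPM, 4.06 and 5.62 TPM, and 7.09 and 4.50 TPM, with a log2 change of -1.03 (SE 0.23, limma adjusted p = 0.0439). The 6 genes that fell in Rbbp4 OE in TPM all kept a negative sign but did not pass after median-of-ratios scaling, with limma adjusted p, among others, of 0.0628 for Atp5s, 0.115 for Cox5a, 0.124 for Sdhd, 0.244 for Uqcrfs1 and 0.411 for Atp5b.

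**Figure D4:**
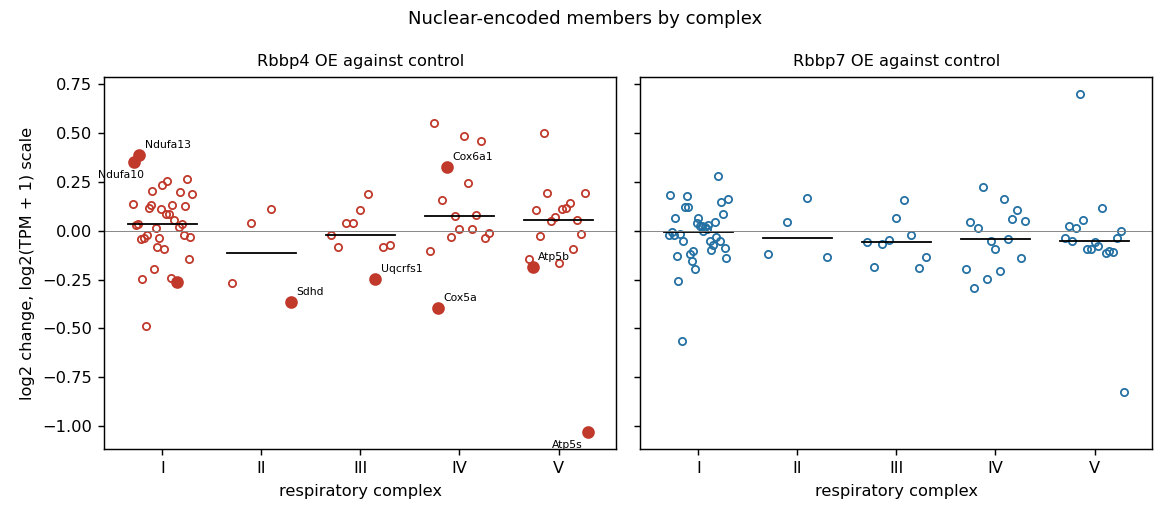
Log2 changes against control, on the log2(TPM + 1) scale, of the 82 tested nuclear-encoded members by complex in Rbbp4 OE (left) and Rbbp7 OE (right); filled points, most of them named, passed an adjusted p under 0.05 with limma, open points did not, and black lines are medians. In Rbbp4 OE 9 points are filled, 3 above 0 and 6 below, and in Rbbp7 OE none is.

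The second comparison set Rbbp7 OE against the same controls. With limma, 1 of 95 members passed an adjusted p under 0.05 as higher and 0 as lower, where 0.198% and 0.29% of all tested genes did. An unadjusted p under 0.05 was reached by 26 members (27.4%) and by 15.4% of all tested genes. No member passed the study's thresholds, which 0.0353% of all tested genes did. The gene that rose was mt-Cytb, with a log2 change of 0.51 (SE 0.029, limma adjusted p = 0.00393). It no longer passed without Rbbp4 OE replicate 1 (limma adjusted p = 0.152), Rbbp4 OE replicate 2 (0.143), Rbbp7 OE replicate 1 (0.157) or Rbbp7 OE replicate 2 (0.0549), with no filter (0.0814), in the 2-group fit (0.165) or after median-of-ratios scaling (0.0507). The median log2 change was 0.27 over the mtDNA genes, -0.03 over the nuclear genes and -0.0037 over all tested genes. Among the 13 mtDNA genes, 12 had positive values in Rbbp7 OE, as did 6902 of all 14156 tested genes. Of the 13, 9 had an unadjusted limma p under 0.05, with mt-Nd4 at 0.40 (limma adjusted p = 0.0890), mt-Nd5 at 0.36 (0.0785), mt-Nd2 at 0.27 (0.0692), mt-Nd1 at 0.27 (0.104) and mt-Co1 at 0.23 (0.104). With their copies added, mt-Atp6 was at -0.042 and mt-Co2 at -0.0057. With Gm28438 added, mt-Nd3 was at -0.27 (SE 0.048, limma adjusted p = 0.0942). The smallest adjusted p of a nuclear gene was 0.146, that of Cox5a at -0.29. The Rbbp4 OE and Rbbp7 OE values share their controls and so are not independent of each other.

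The lines were also compared directly, and no member passed. With limma, 0 of 95 members passed an adjusted p under 0.05, whereas 0.177% of all tested genes passed as higher in Rbbp4 OE and 0.127% as lower. An unadjusted p under 0.05 was reached by 28 members (29.5%) and by 19.0% of all tested genes. The study's thresholds gave 0 members and 0.0494% of all tested genes. For mt-Cytb, the log2 difference between the lines was 0.12 (SE 0.029, limma adjusted p = 0.142). The median difference was 0.05 over the mtDNA genes, 0.06 over the nuclear genes and -0.08 over all tested genes. The smallest adjusted p was that of Atp5b, at -0.21 (SE 0.035, limma adjusted p = 0.0950). Passing in 1 line and not in the other is therefore not shown to be a difference between the lines for any member.

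Several subunits exist as alternative isoforms that are typical of particular tissues. The genes below were grouped by symbol, and Cox7a2l and Ndufa4l2 stand among them on that ground alone. In each pair, the broadly expressed gene was above its partner in every library, except that Cox7a2l (88.1 TPM) was below Cox7a1 (89.4 TPM) in Rbbp4 OE replicate 2. Cox4i1 had 1081 to 1296 TPM and Cox4i2, typical of lung, had 0.36 to 1.57 TPM. Cox6a2 and Cox8b, the isoforms of heart and skeletal muscle, were listed at 0 in all 6 libraries, while Cox6a1 had 1439 to 1938 TPM and Cox8a 689 to 759 TPM. The testis isoforms differed among themselves: Cox8c had 0 to 0.50 TPM and Cox7b2 0.31 to 2.03 TPM, but Cox6b2 had 191 to 222 TPM beside 365 to 456 TPM of Cox6b1. Cox7a1, the isoform of heart and muscle, was also present, with 60.3 and 62.1 TPM in the controls, 82.7 and 89.4 TPM with Rbbp4 OE, and 45.5 and 61.6 TPM with Rbbp7 OE, beside 109 to 134 TPM of Cox7a2 and 81.2 to 88.9 TPM of Cox7a2l. Its Rbbp4 OE libraries lay above all others, but the log2 change of 0.48 did not pass (limma adjusted p = 0.0765). Ndufa4 had 417 to 434 TPM and Ndufa4l2 1.10 to 4.91 TPM. The 3 genes that encode the same mature c subunit of ATP synthase, Atp5g1, Atp5g2 and Atp5g3, had 675 to 797 TPM, 604 to 701 TPM and 664 to 780 TPM, ranges that overlapped. Besides Cox6a2, Cox8b and Cox8c, the member not tested was a gene that shares the symbol Atp5o with an expressed gene and was listed at 0.

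**Figure D5:**
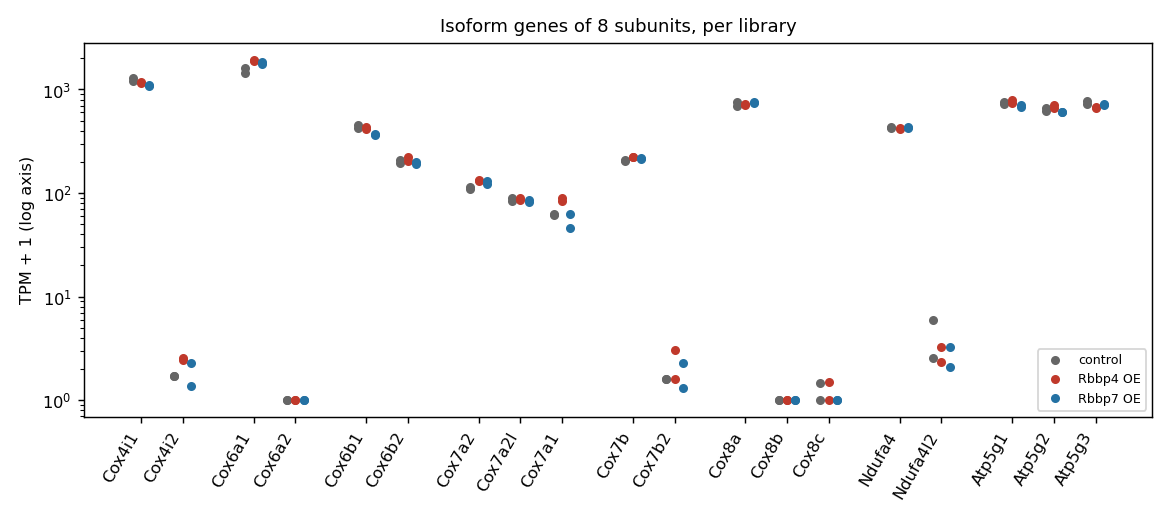
TPM + 1 on a log axis of genes grouped by symbol as isoforms of 8 subunits, with 1 point per library, grey for control, red for Rbbp4 OE and blue for Rbbp7 OE. Cox6b2 (191 to 222 TPM) and Cox7a1 (45.5 to 89.4 TPM) lie within a few fold of their partners, whereas Cox4i2, Cox6a2, Cox7b2, Cox8b, Cox8c and Ndufa4l2 lie near the bottom of the axis.

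Apart from the isoforms and the Atp5o gene listed at 0, the nuclear members were expressed in every library. In complex I, 36 of 37 had a mean of at least 10 TPM, with a median of 158 TPM over the complex. The medians of complexes II, III, IV and V were 129, 359, 209 and 394 TPM. The most abundant nuclear member was Atp5b, with a mean of 1986 TPM. Copies make some of these levels uncertain too, since 19 nuclear members had 35 near-identical annotated copies, mostly processed pseudogenes, of which 8 exceeded 5 TPM in a library. Ndufb4 had 50.8 to 64.7 TPM and its copy Ndufb4c, 100% identical over the coding sequence, 319 to 390 TPM. Ndufs5 had 40.3 to 54.0 TPM and BC002163 73.2 to 111 TPM. Atp5l had 375 to 435 TPM and Gm10221 146 to 254 TPM. With all copies added, 18 members passed in Rbbp4 OE, 11 higher and 7 lower, and the added one was mt-Nd3.

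Nuclear genes that serve the chain without being part of it were counted from fixed lists. Of 52 tested assembly factors, 0 rose and 4 fell in Rbbp4 OE, with a median log2 change of -0.13, where 40 of 52 had negative values. Over all tested genes, 8.07% fell and 59.0% had negative values, so the share that fell, 7.69%, was near that of all genes. These were Taco1, a translational activator of mt-Co1, at -0.85 (limma adjusted p = 0.0386), Coa5 at -0.52 (0.0173), the complex I factor Tmem126a at -0.51 (0.0126) and the ATP synthase factor Fmc1 at -0.29 (0.0479). Of 29 genes for the upkeep and expression of mtDNA, 0 rose and 3 fell (10.3%, against 8.07% of all tested genes), with a median of -0.07. Tfam, which packages mtDNA and starts its transcription, had 58.8 and 63.3 TPM in the controls, 42.3 and 40.8 TPM with Rbbp4 OE, and 50.6 and 54.9 TPM with Rbbp7 OE, a log2 change with Rbbp4 OE of -0.54 (SE 0.078, limma adjusted p = 0.0154). Polg, the mtDNA polymerase, had 44.6 and 41.6 TPM, 27.4 and 28.8 TPM, and 32.5 and 36.4 TPM, a log2 change of -0.60 (SE 0.090, limma adjusted p = 0.0165). For both, all libraries of the lines lay below both controls, while the mtDNA sum without mt-Atp8 lay above them. Fastkd3, of a family of mitochondrial RNA-binding proteins, was at -0.97 (limma adjusted p = 0.0481).

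Among 12 genes of the mobile carriers cytochrome c and coenzyme Q, 0 rose and 1 fell, Coq3, a methyltransferase of coenzyme Q synthesis, at -0.54 (limma adjusted p = 0.0385). Of 11 tested nuclear regulators, 0 rose and 1 fell, the transcription factor gene Creb1, at -0.77 (limma adjusted p = 0.0331). Of 78 mitochondrial ribosomal protein genes, 2 rose and 5 fell (2.56% and 6.41%, against 3.29% and 8.07% of all tested genes), with a median of 0.03. The 4 largest changes were Mrpl54 at 0.45 (limma adjusted p = 0.0126), Mrpl3 at -0.45 (0.0298), Mrpl48 at 0.42 (0.0452) and Mrps27 at -0.41 (0.0292). Of 16 genes of pyruvate dehydrogenase and the tricarboxylic acid cycle, 0 rose and 1 fell, Pdhb, at -0.23 (limma adjusted p = 0.0372). Over all tested genes, the median was -0.08. The shares that fell were 8.33% of the carrier genes, 9.09% of the regulators and 6.25% of the cycle genes, each near the share over all genes. In Rbbp7 OE none of these genes passed with limma, and the medians were -0.05 for the assembly factors, -0.01 for mtDNA upkeep, 0.03 for the carriers, -0.02 for the regulators, -0.01 for the ribosomal proteins and 0.08 for the cycle.

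The rule used no promoter sequence, so the promoters were searched for short motifs. RefSeq promoters on GRCm38.p6, from 250 bases before to 50 after the start, were matched for 69 of the 86 nuclear members, under 68 RefSeq symbols. A gene counted as holding a motif if any of its promoters did, on either strand. A motif of NRF1, GCGCANGCG, was held by 29.4% of the 68 genes and by 7.03% of 27025 genes. A motif of the ETS family, CCGGAAG, was in 23.5% and 9.93%, and a motif of YY1, AANATGGCG, in 14.7% and 2.76%, so most members lacked each motif in this window. The difference from all genes was not tested. These factors are known regulators of respiratory chain genes, and a match is a description, not a site. The 250 bases before the start are shown for a gene that rose and one that fell in Rbbp4 OE. For the 8 windows of nuclear members that passed in Rbbp4 OE, only these 250 bases were searched, not the 50 after the start. Of these 8, 6 held no match to any of the motifs there and 2 did, which are the genes shown. They are Cox6a1 (chr5:115348959-115349208, minus strand) and Sdhd (chr9:50603850-50604099, minus strand), with matches to the NRF1 and ETS motifs in capitals.
Cox6a1: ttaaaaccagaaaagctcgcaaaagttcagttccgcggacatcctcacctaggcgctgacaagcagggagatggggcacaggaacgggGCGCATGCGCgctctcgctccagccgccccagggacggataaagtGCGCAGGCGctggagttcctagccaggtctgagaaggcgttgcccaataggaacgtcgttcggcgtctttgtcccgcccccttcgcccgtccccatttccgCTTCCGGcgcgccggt
Sdhd: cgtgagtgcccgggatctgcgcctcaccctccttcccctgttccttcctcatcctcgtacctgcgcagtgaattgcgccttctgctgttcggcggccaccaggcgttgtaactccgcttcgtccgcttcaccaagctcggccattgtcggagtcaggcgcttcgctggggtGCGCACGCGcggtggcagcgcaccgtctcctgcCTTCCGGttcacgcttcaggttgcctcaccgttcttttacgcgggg
The bases shown for Cox6a1 held 3 NRF1 matches, overlapping ones included, and 1 ETS match. Those shown for Sdhd held 1 of each.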

How the data were processed

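Bulk mRNA libraries (VAHTS mRNA-seq V3 kit) of 46C mESCs were grouped by their labels into control, Rbbp4 OE and Rbbp7 OE, with 2 libraries each. The authors trimmed reads with Trim_galore v0.6.7, aligned them to mm10 with STAR v2.7.0d and Gencode vM25, estimated expression with RSEM v1.3.3, and deposited TPM values per gene. Depth is not kept and is unknown. RSEM divides reads that fit several genes between them, which affects genes with copies.

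Genes were annotated (symbol, biotype, position) from GENCODE M21, GRCm38 (55141 of 55401 genes matched, 260 did not, and all 99 members matched with the same version). The study used a count model, and TPM are not counts, so limma-trend (limma 3.58.1, R 4.3.3) was run on log2(TPM + 1) for 14156 genes with a mean of at least 0.5 TPM, all 6 libraries in 1 fit with 3 residual and 3.103 prior degrees of freedom, two-sided, Benjamini-Hochberg adjusted over all genes tested. Fold changes on this scale understate changes of low genes. Copies were found with blastn 2.17.0 at 95% identity over 80% of the coding sequence.

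The members and lists were chosen with earlier results of these data known. Genes were named by rule: all mtDNA genes, members that passed, isoform pairs, up to 4 passing genes per other list, and Rbbp4 and Rbbp7. A member that passed and a marker gene are counted but not reported here by name. Genes outside it (such as the remaining complex II genes, the ends of a range, genes with copies and mt-Rnr1 and mt-Rnr2) were named after their values were seen. Alternatives were other pseudocounts, filters, scalings and fits, a replicate block and leaving out each library. Adding copies, leaving mt-Co1 out of a sum and rescaling without mt-Atp8 were chosen after seeing the data.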

Additional observations from a re-analysis of the deposited data

Results flagged for a closer look

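Atp5b and Atp5c1, the beta and gamma subunits of ATP synthase, were picked out by the side of both controls on which the libraries lay. For each gene, both Rbbp4 OE libraries lay on the opposite side from both Rbbp7 OE libraries. Lying apart from the controls was common. Among 14156 tested genes, both Rbbp4 OE libraries lay above both controls for 2943 and below them for 5255. With Rbbp7 OE these numbers were 2995 and 3308. How many genes lay on opposite sides in the lines was not counted, so the pattern is not shown to be unusual. The log2 change of Atp5b was -0.19 with Rbbp4 OE and 0.027 with Rbbp7 OE. Compared directly between the lines, its limma adjusted p was 0.0950. Atp5c1 had 374 and 384 TPM in the controls, 412 and 405 TPM with Rbbp4 OE, and 366 and 365 TPM with Rbbp7 OE, with log2 changes of 0.11 and -0.053. Its limma adjusted p between the lines was 0.151, so neither difference passed the test.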

How the results depend on the processing

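No alternative reversed the direction of a member that passed, and the cause of changes was not tested except where the construction gives it. Calls in Rbbp4 OE often became weaker, however. They held in as few as 7 of 18 alternatives for mt-Nd4 and 7 of 19 for Uqcrfs1, and at most in 17 of 18, for mt-Cytb. For Rbbp4 OE against control, 17 members became 5 with no filter (more genes tested), 11 of 82 when nuclear genes were rescaled without the mitochondrial chromosome (mtDNA genes left out), 9 with a replicate block, 8 higher and 1 lower, 1 in the 2-group fit (fewer samples) and 0 to 17 leaving out 1 library. The labels do not say whether same replicate numbers mark pairs. With group means taken out, same-numbered libraries had correlations of -0.026, 0.034 and -0.031 over all genes. Over the members these were 0.164 between control and Rbbp4 OE, 0.355 between control and Rbbp7 OE, and -0.011 between the lines. Whether libraries were paired is not settled by these values. The median of the mtDNA genes became 0.43 under median-of-ratios scaling, 0.24 under quantile normalization and 0.26 to 0.38 leaving out 1 library. That of the nuclear genes became 0.14 under median-of-ratios scaling and -0.0037 to 0.089 leaving out 1 library. For Rbbp7 OE, 1 member became 0 with no filter, median-of-ratios scaling, the rescaling or the 2-group fit, 4 at a mean of at least 5 TPM, 3 among protein-coding genes and 0 to 1 leaving out 1 library. Its nuclear median was -0.055 to 0.016 leaving out 1 library. Between the lines, median-of-ratios scaling gave medians of 0.15 and 0.16 for mtDNA and nuclear genes, quantile normalization gave 0 for mtDNA genes, and leaving out 1 library gave -0.0078 to 0.11. In those fits the lone remaining library takes the spread of the other groups. The other settings run left the counts and medians within their limits. Depth is unknown, so precision rests on 2 libraries a group.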
